A study of Arabidopsis thaliana with 9 samples.

Results

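Whole seedlings of Arabidopsis thaliana that overexpress the carboxylesterase gene CXE15 (labelled AtCXE15-OE, 3 libraries) were set against the wild type Col-0 (3 libraries), across every gene with a locus ID other than CXE15. The comparison uses 6 of the 9 libraries in the series and 27365 of the 27814 rows in its count table. The other 3 libraries come from atd14-1, in which the strigolactone receptor D14 is mutated, and serve below only to show where AtCXE15-OE stands apart from a line that cannot perceive the hormone. The question put by the series is which transcripts depend on strigolactones. All seedlings were untreated and were kept at 22 °C with 16 h of light and 8 h of dark. Their age is given as 8 days in one label and 10 days in another. AtCXE15-OE carries the transgene beside the resident gene, and is described in the labels as having a strigolactone defect phenotype. The sources used here do not name the transgene's promoter or say how many independent lines were used. They do not state either that replicates of a group were grown apart, and the p-values then measure only the spread among replicates, which may be technical.

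Strigolactones are carotenoid-derived hormones that restrain shoot branching and shape root architecture. They are made from carotenoids by the dioxygenases CCD7 and CCD8, among other enzymes. The receptor D14 binds and hydrolyses the hormone and then recruits the F-box protein MAX2, which marks repressors of the SMXL family for degradation. CXE15 cleaves strigolactones and so lowers the amount of hormone that reaches the receptor.

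Totals ran from 37724263 to 54421069 counts per library over the 9 libraries. Within a group, correlations of log2 CPM (CPM are counts scaled by library total and by TMM, a factor for library composition) were 0.973 to 0.978, and no 2 libraries agreed within sampling noise. Correlations of an AtCXE15-OE library with a Col-0 library were 0.970 to 0.974, a range that overlaps the former. The first principal component of the 6 libraries, with 26.6% of the variance, put all AtCXE15-OE libraries on one side of 0 and all Col-0 libraries on the other. Chloroplast and mitochondrial transcripts made up 0.0146% to 0.0192% of the counts. Root marker genes (17) summed to 275 to 288 CPM in AtCXE15-OE and 275 to 316 CPM in Col-0, and light-harvesting and carbon fixation genes (21) to 58763 to 65718 CPM in AtCXE15-OE and 63954 to 68955 CPM in Col-0, so that transcripts of root and shoot were both present, as in whole seedlings. The overexpressed gene itself was at 964, 763 and 739 CPM in AtCXE15-OE against 3.73, 3.96 and 4.12 CPM in Col-0. That value checks the labels and is left out of every count that follows. The table gives the CXE15 row a span of 4.76 Mb on chromosome 5, against an annotated gene of 3.76 kb, and how reads within that span were counted is not given in the sources used here. Altogether, 72 rows span over 100 kb, of which none other than CXE15 is called or named here and 9 are tested members of the lists.

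More genes were lower than higher in AtCXE15-OE. Of 21130 genes with enough counts to test, 480 differed from Col-0 at an edgeR adjusted p (Benjamini-Hochberg) under 0.05, which is 2.27% of those tested. Of these, 323 were lower (1.53%) and 157 were higher (0.743%). Most of the differences were small. The median log2 fold change was -0.46 among the genes that fell and 0.37 among those that rose, against 0.0034 over all genes tested. At least 1.5-fold changes were called for 120 genes that fell and 33 that rose, and at least 2-fold changes for 37 and 11 (21 rose at least 2-fold without Col-0 replicate 1). In all 480 genes the AtCXE15-OE libraries did not overlap the Col-0 libraries, a separation that was found in 3780 of the 21130 genes tested (17.9%). The count depends on single libraries, since 284 genes were called without AtCXE15-OE replicate 3, 300 without Col-0 replicate 1 and 308 without Col-0 replicate 2. Of the genes that rose, 77 and 96 were called without AtCXE15-OE replicate 3 or 2, and 94 and 90 without Col-0 replicate 1 or 2. Of those that fell, 207 and 206 were called without AtCXE15-OE replicate 3 or Col-0 replicate 1. With library size as the only scaling, 43.8% of the calls were higher, in place of 32.7%. Calls were spread over the 5 chromosomes, with 1.36% to 1.73% of the genes of each lower and 0.687% to 0.818% higher, and of 95 chloroplast and mitochondrial genes none was called by edgeR, 1 was by DESeq2 and 2 had an unadjusted p under 0.05.

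**Figure D1:**
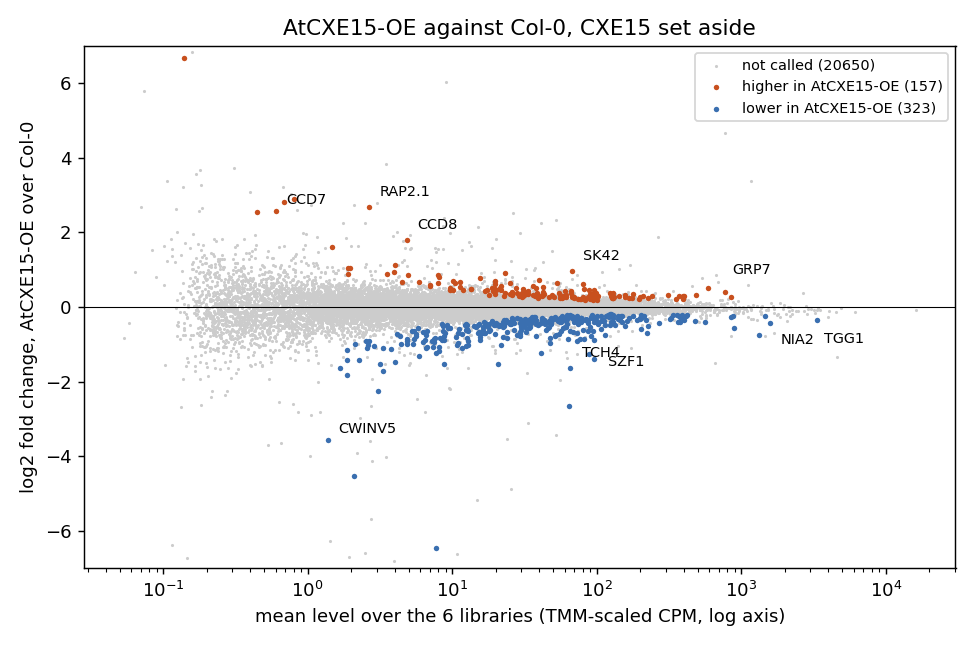
Change against level for 21130 genes in AtCXE15-OE over Col-0, with the mean level over the 6 libraries on a log axis (TMM-scaled CPM) and the log2 fold change on the vertical axis. Grey points were not called, blue points were lower (323) and orange points higher (157) by edgeR at an adjusted p under 0.05, and 4 genes that were not called lie beyond the limits of 7.

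Genes that plants switch on within minutes of touch, wounding or attack fell together. The list of 23 such genes was chosen with earlier results of these data known, so that its share is a description only. All 23 had enough counts to test, of which 20 fell (87.0%, against 1.53% of all genes tested) and none rose. All 23 had a log2 fold change below 0, with a median of -0.72 against 0.0034 over all genes tested. Summed over the list, the level was 593, 646 and 648 CPM in AtCXE15-OE, with 648, 619 and 675 CPM in atd14-1 and 1008, 1039 and 1057 CPM in Col-0. The 2 lines lay in the same range and every Col-0 library lay above it. Leaving out any 1 library of the comparison left 18 to 20 of the members lower. The 3 members that did not pass the test were MPK3, a mitogen-activated protein kinase (log2 fold change -0.19), the zinc finger gene ZAT11 (-0.90) and the calmodulin-like gene CML39 (-0.64). In whole seedlings, fewer cells of a type and less RNA per cell cannot be told apart.

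Zinc finger genes had some of the smallest adjusted p-values. SZF1 (AT3G55980, chromosome 3, 20776220 to 20778952), a CCCH-type zinc finger gene induced by salt, was at 49.4, 54.8 and 54.5 CPM in AtCXE15-OE against 130.1, 140.3 and 144 CPM in Col-0. It was thus 2.61-fold lower (log2 fold change -1.39 ± 0.06 SE, edgeR adjusted p = 1.62e-08), with every AtCXE15-OE library below every Col-0 library, as in all called genes that fell. Its closest relative CZF1 (AT2G40140, chromosome 2, 16771997 to 16774734) was at 53.1, 53.9 and 55.3 CPM in AtCXE15-OE and 91.0, 99.2 and 105 CPM in Col-0 (log2 fold change -0.86 ± 0.06, edgeR adjusted p = 2.34e-06). STZ, also called ZAT10, a C2H2 repressor of stress responses, had 47.2, 53.3 and 52.2 CPM in AtCXE15-OE and 91.1, 99.1 and 97.6 CPM in Col-0. The difference (-0.91 ± 0.06, edgeR adjusted p = 2.23e-06) again exceeded the spread, since the highest AtCXE15-OE library had 53.3 CPM and the lowest Col-0 library 91.1 CPM.

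Outside the lists, 4 more genes were among the 10 with the smallest adjusted p, and all of them fell. AT4G29780, annotated as a nuclease, was at 31.1, 33.3 and 29.9 CPM in AtCXE15-OE against 107, 98.2 and 89.8 CPM in Col-0, which is 3.13-fold lower (log2 fold change -1.64 ± 0.07, edgeR adjusted p = 1.62e-08). DIC2 (AT4G24570), a mitochondrial dicarboxylate carrier, was at 48.4, 55.5 and 52.3 CPM in AtCXE15-OE against 129, 124 and 124 CPM in Col-0 (-1.27 ± 0.06, edgeR adjusted p = 1.62e-08). The protein phosphatase 2C gene AT2G30020 was at 23.4, 24.9 and 25.3 CPM in AtCXE15-OE against 56.6, 57.1 and 58.7 CPM in Col-0 (-1.23 ± 0.06, edgeR adjusted p = 5.12e-08). In each the gap between the groups was several times the range within them. AT3G56880, which encodes a protein with a VQ motif, fell by 0.65 ± 0.05 on the log2 scale (edgeR adjusted p = 6.89e-06).

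Promoters of the genes that fell are shown because short motifs linked to stress-induced transcription were more frequent in them. The motifs were searched on both strands in the 250 bases before the annotated start of each gene, and a match is only a description of these letters. CGCGTT, a motif known from genes that respond rapidly to stress, was in 7.45% of the promoters of genes that fell, 10.8% of those that fell at least 1.5-fold, 1.27% of those that rose and 2.77% of all promoters of tested genes. TTGAC, the core that WRKY proteins bind, was in 55.0% of promoters of genes that fell, 64.2% of those that fell at least 1.5-fold, 43.9% of those that rose and 45.2% of all. The 5 letters CCGAC, bound by DREB factors, were in 12.1% of promoters of genes that fell, 12.7% of those that rose and 12.7% of all. CACGTG, the G-box, was in 9.63%, 7.64% and 7.39% of these sets, and AATATCT, the core of the evening element of clock-controlled genes, in 12.7%, 17.2% and 10.2%. All 10 genes with the smallest adjusted p had TTGAC in this window and 1 of them, DIC2, had CGCGTT. SZF1 held 4 matches to TTGAC and each of the others 1 or 2. DIC2, SZF1 and CZF1 were chosen from these 10 after the motif counts were seen, and so are not typical of the genes that fell. Their promoters are given below from the TAIR10.1 assembly of RefSeq, all on the plus strand. They lie at chr4:12686209-12686458, chr3:20775970-20776219 and chr2:16771747-16771996, with CGCGTT and TTGAC (or its reverse complement GTCAA) in capitals.
DIC2: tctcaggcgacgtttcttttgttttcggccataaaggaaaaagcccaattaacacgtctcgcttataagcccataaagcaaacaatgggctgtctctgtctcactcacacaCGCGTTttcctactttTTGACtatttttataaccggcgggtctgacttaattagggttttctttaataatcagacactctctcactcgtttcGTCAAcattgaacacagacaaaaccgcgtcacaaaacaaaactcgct
SZF1: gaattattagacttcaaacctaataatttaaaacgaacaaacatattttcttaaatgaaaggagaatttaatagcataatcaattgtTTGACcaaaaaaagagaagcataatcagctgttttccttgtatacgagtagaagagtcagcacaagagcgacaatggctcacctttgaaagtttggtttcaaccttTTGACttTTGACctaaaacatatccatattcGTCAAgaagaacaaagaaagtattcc
CZF1: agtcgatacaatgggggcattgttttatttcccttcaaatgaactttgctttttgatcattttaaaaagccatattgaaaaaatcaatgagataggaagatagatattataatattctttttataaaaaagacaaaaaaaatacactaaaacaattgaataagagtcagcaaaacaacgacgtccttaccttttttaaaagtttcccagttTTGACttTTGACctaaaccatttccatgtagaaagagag
SZF1 and CZF1 share the 19-base stretch ttTTGACttTTGACctaaa, with TTGAC in tandem, which begins 59 bases before the start of SZF1 and 41 bases before that of CZF1. No other promoter of a tested gene held that stretch on either strand.

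Calcium sensors and wall enzymes named for their response to touch were lower as well. TCH4 (AT5G57560), which encodes a xyloglucan endotransglucosylase that remodels the cell wall, was at 44.1, 45.2 and 46.0 CPM in AtCXE15-OE and 82.6, 79.7 and 81.5 CPM in Col-0 (log2 fold change -0.85 ± 0.06, edgeR adjusted p = 2.74e-06). The calmodulin-like gene TCH2 (CML24) was at 49.4 ± 2.45 CPM in AtCXE15-OE and 72.2 ± 2.46 CPM in Col-0 (SD, n = 3; -0.55 ± 0.06, edgeR adjusted p = 0.000328). CML38, another calcium-binding protein, had 5.14, 5.29 and 5.04 CPM in AtCXE15-OE against 11.2, 9.93 and 11.6 CPM in Col-0 (-1.08 ± 0.13, edgeR adjusted p = 0.000328). Across the whole calmodulin-like family, as named by the annotation, 6 of 15 tested members fell (40%, against 1.53% of all genes tested) and none rose. Of 30 xyloglucan endotransglucosylase genes 4 fell (13.3%) and none rose, namely TCH4, XTH6 (-0.46 ± 0.07), EXGT-A3 (-0.22 ± 0.05) and XTH19 (-0.26 ± 0.06). That count was 2 without AtCXE15-OE replicate 2 or 3, or without any 1 Col-0 library. Of 25 expansin genes none was called by edgeR, DESeq2 or limma-voom, 6 had an unadjusted p under 0.05, and 1 was called higher without AtCXE15-OE replicate 1.

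**Figure D2:**
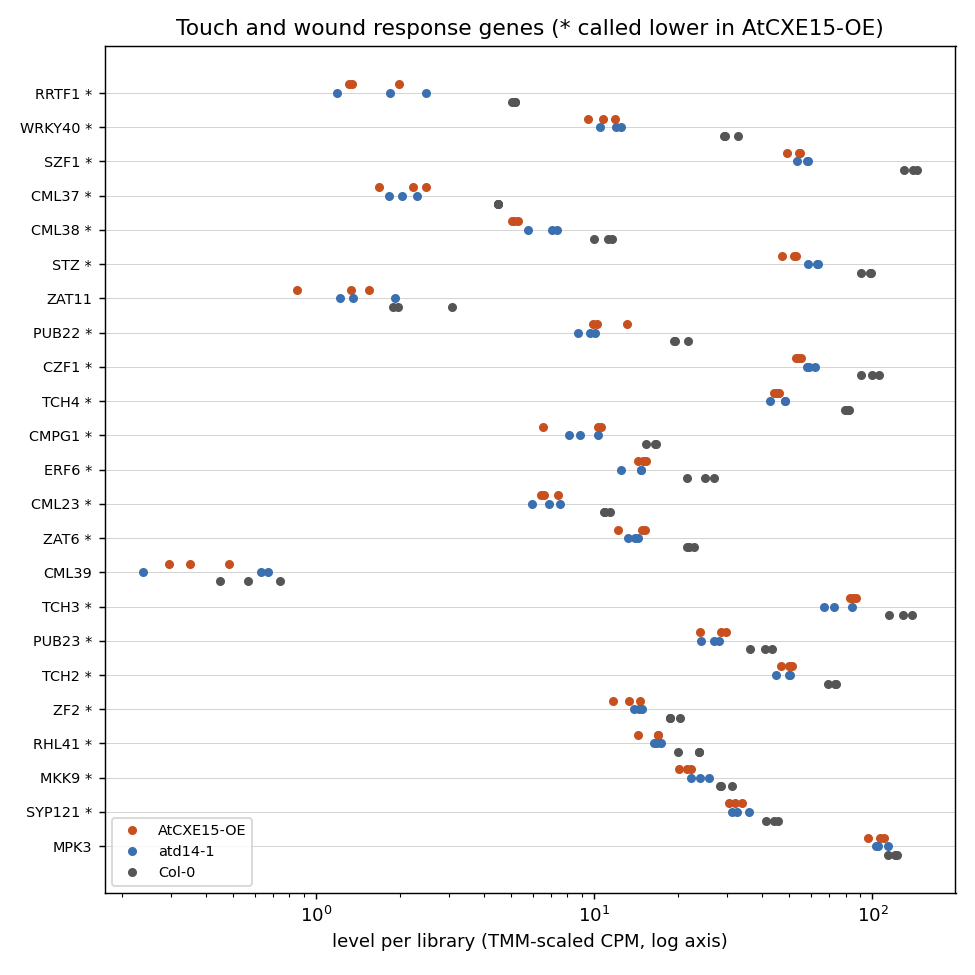
Level of each of the 23 touch and wound response genes in every library (TMM-scaled CPM on a log axis), with AtCXE15-OE drawn above atd14-1 and Col-0 in each row and the genes ordered by log2 fold change. A star marks the 20 genes called lower in AtCXE15-OE, in which the 3 AtCXE15-OE points lie left of the 3 Col-0 points.

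Some genes of defence regulation fell too. WRKY40 (AT1G80840), a WRKY repressor of defence genes, was at 9.48, 10.7 and 11.9 CPM in AtCXE15-OE against 32.9, 29.1 and 29.5 CPM in Col-0 (log2 fold change -1.51 ± 0.11, edgeR adjusted p = 2.74e-06). WRKY33, which controls camalexin synthesis and resistance to necrotrophic fungi, was at 67.8, 69.2 and 65.5 CPM in AtCXE15-OE against 119.7, 116 and 108 CPM in Col-0 (-0.76 ± 0.06, edgeR adjusted p = 1.12e-05). Both separated the groups without overlap, as all 480 called genes did. With overlapping loci of the table summed, WRKY40 was at -0.99 and WRKY33 at -0.71, both still called. Of 65 WRKY genes tested 7 fell (10.8%, against 1.53% of all genes tested), among them WRKY22 (-1.06 ± 0.13) and WRKY46 (-1.11 ± 0.15), and none rose, while the family's median log2 fold change was 0.0039. Of 257 RING and U-box ubiquitin ligase genes 8 fell (3.11%) and none rose, with a median log2 fold change of -0.013. They include PUB22 (-0.87 ± 0.12), a brake on pattern-triggered immunity, and the elicitor-responsive gene ATL2 (-0.72 ± 0.08). The gene for SOBIR1, a co-receptor kinase of receptor-like proteins, was at 63.5 ± 6.42 CPM in AtCXE15-OE and 97.1 ± 3.21 CPM in Col-0 (SD, n = 3; -0.61 ± 0.07, edgeR adjusted p = 0.000351; -0.37 with overlapping loci summed). In the salicylic acid and defence list 15 of 18 genes were below 0, with a median log2 fold change of -0.091. In it 1 fell (5.56%), the regulator CBP60G (-0.61 ± 0.13, edgeR adjusted p = 0.0191). CBP60G did not pass without AtCXE15-OE replicate 3 or Col-0 replicate 1 or 2, and 2 genes of the list fell without Col-0 replicate 3.

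Ethylene response factors and their cold-induced relatives formed the next group. Of 25 tested stress-related ERF and DREB genes (26 listed) 11 fell (44%, against 1.53% of all genes tested) and 1 rose (4%, against 0.743%). The median log2 fold change was -0.61. The summed level of the list was 311 to 342 CPM in AtCXE15-OE, with 325 to 355 CPM in atd14-1 and 468 to 496 CPM in Col-0. ERF104, a substrate of a stress-activated kinase, was at 46.3, 55.3 and 52.5 CPM in AtCXE15-OE and 82.9, 78.3 and 79.4 CPM in Col-0 (log2 fold change -0.64 ± 0.06, edgeR adjusted p = 9.74e-05). ERF4, a repressor, was at 55.1, 56.7 and 55.1 CPM in AtCXE15-OE and 86.4, 83.7 and 101 CPM in Col-0 (-0.70 ± 0.07, edgeR adjusted p = 0.000105). ORA47, which activates jasmonate synthesis genes, was at 7.42 ± 0.379 CPM in AtCXE15-OE and 14.4 ± 1.21 CPM in Col-0 (SD, n = 3; -0.95 ± 0.10, edgeR adjusted p = 0.000183). CBF2, an activator of cold tolerance genes, was at 7.09 ± 0.725 CPM in AtCXE15-OE and 14.5 ± 1.28 CPM in Col-0 (-1.03 ± 0.16, edgeR adjusted p = 0.0028).

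RAP2.1 went the other way. This DREB-type repressor of cold and drought genes (AT1G46768, chromosome 1, 17265586 to 17266824) was at 4.94, 3.39 and 5.46 CPM in AtCXE15-OE, with 4.49, 5.79 and 6.14 CPM in atd14-1 and 0.425, 0.489 and 1.21 CPM in Col-0. Both lines were high and the wild type was low. Against Col-0 it was 6.44-fold higher in AtCXE15-OE (log2 fold change 2.69 ± 0.36, edgeR adjusted p = 0.00357), and it did not pass the test against atd14-1 (-0.25 ± 0.32, edgeR adjusted p = 0.735). Of 13 cold and drought protective genes 1 rose (7.69%, against 0.743% of all genes tested), COR15B. It encodes a chloroplast protein that protects membranes in the cold. COR15B was at 25.6, 23.7 and 23.8 CPM in AtCXE15-OE, with 48.2, 50.4 and 44.4 CPM in atd14-1 and 15.3, 14.6 and 15.5 CPM in Col-0. AtCXE15-OE thus lay between the receptor mutant and the wild type, and differed from each (0.69 ± 0.07 against Col-0, edgeR adjusted p = 0.000132, and -0.97 ± 0.07 against atd14-1, edgeR adjusted p = 4.04e-06). A further gene of the list rose without AtCXE15-OE replicate 1.

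Hormone synthesis and turnover genes are taken list by list. Of 5 strigolactone synthesis genes CCD7 and CCD8 rose (40%, against 0.743% of all genes tested). CCD8 (AT4G32810, chromosome 4, 15828228 to 15831492) was at 8.80, 6.68 and 7.20 CPM in AtCXE15-OE, with 15.2, 15.5 and 13.9 CPM in atd14-1 and 2.15, 1.93 and 2.38 CPM in Col-0. The 3 groups did not overlap, and AtCXE15-OE differed from Col-0 (log2 fold change 1.81 ± 0.14, edgeR adjusted p = 6.89e-06) and from atd14-1 (-0.98 ± 0.13, edgeR adjusted p = 0.000533). Summed with a locus that overlaps it in the table, the value against Col-0 was 0.24 (edgeR adjusted p = 0.0556). CCD7 was at 0.654, 1.22 and 1.21 CPM in AtCXE15-OE, with 2.61, 2.49 and 2.21 CPM in atd14-1 and 0.0945, 0.257 and 0.167 CPM in Col-0, where it is close to the floor of 3 counts (0.0709 to 0.0772 CPM). Its difference from atd14-1 (-1.24, edgeR adjusted p = 0.0336) did not pass once any 1 library of either line was left out. SMXL6 and SMXL7, which encode repressors that D14 removes, had small falls (-0.29 ± 0.06 and -0.24 ± 0.06, edgeR adjusted p = 0.0203 and 0.0397), and both calls were lost without AtCXE15-OE replicate 2 or 3 or without any 1 Col-0 library.

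CYP707A3, the abscisic acid hydroxylase that inactivates the hormone, was at 3.88, 3.87 and 5.78 CPM in AtCXE15-OE, with 6.12, 5.45 and 4.34 CPM in atd14-1 and 13.3, 13.6 and 11.9 CPM in Col-0 (log2 fold change -1.52 ± 0.17 against Col-0, edgeR adjusted p = 0.000286). It was low in all 6 libraries of the 2 lines. Of 12 abscisic acid synthesis and breakdown genes 2 fell (16.7%, against 1.53% of all genes tested). The member called lower beside CYP707A3 was ABA1, the zeaxanthin epoxidase (-0.22 ± 0.05, edgeR adjusted p = 0.0272). That call was lost without AtCXE15-OE replicate 2 or 3 or any 1 Col-0 library. None of the 9 clade A PP2C phosphatases of the abscisic acid pathway was called by edgeR, DESeq2 or limma-voom, and 0 had an unadjusted p under 0.05.

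In the ethylene list 3 of 19 genes fell (15.8%, against 1.53% of all genes tested) and none rose. ACS6, which makes the ethylene precursor ACC and is induced by touch, was at 30.2, 32.2 and 33.5 CPM in AtCXE15-OE, with 40.2, 36.3 and 37.7 CPM in atd14-1 and 64.0, 60.5 and 63.2 CPM in Col-0 (log2 fold change -0.97 ± 0.06 against Col-0, edgeR adjusted p = 2.23e-06). The AtCXE15-OE libraries were the lowest of the 3 groups, and the difference from atd14-1 was called (-0.25 ± 0.06, edgeR adjusted p = 0.0304), though not without AtCXE15-OE replicate 1 or 2 or without any 1 atd14-1 library. EBF2, an F-box protein that removes ethylene transcription factors, fell by 0.23 ± 0.04 (edgeR adjusted p = 0.014), though not past the threshold without AtCXE15-OE replicate 2 or Col-0 replicate 3.

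Jasmonate genes were divided. Of 16 synthesis and turnover genes 2 rose (12.5%, against 0.743% of all genes tested). They were the lipoxygenase gene LOX2 and the allene oxide cyclase gene AOC2. AOC2 was at 175 ± 2.05 CPM in AtCXE15-OE, with 206 ± 5.09 CPM in atd14-1 and 139 ± 3.63 CPM in Col-0 (SD, n = 3; log2 fold change 0.33 ± 0.05 against Col-0, edgeR adjusted p = 0.00127). AtCXE15-OE lay between the other groups without overlap. LOX2 was at 542 ± 59.6 CPM in AtCXE15-OE, with 836 ± 14.1 CPM in atd14-1 and 432 ± 12.2 CPM in Col-0 (SD, n = 3; 0.33 ± 0.07 against Col-0, edgeR adjusted p = 0.0208), which did not pass without Col-0 replicate 1, 2 or 3. The regulator MYC2, in contrast, was at 101, 101 and 108 CPM in AtCXE15-OE against 147, 142 and 145 CPM in Col-0 (-0.48 ± 0.05, edgeR adjusted p = 6.57e-05). Among 17 jasmonate regulators and outputs MYC2 and the repressor gene JAZ1 (-0.30 ± 0.06) fell and the vegetative storage protein gene VSP2 rose (0.37 ± 0.08). These shares were 11.8% lower and 5.88% higher, against 1.53% and 0.743% of all genes tested. The JAZ1 call was lost without AtCXE15-OE replicate 2 or 3 or Col-0 replicate 1 or 2, and the VSP2 call also without Col-0 replicate 3.

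Auxin synthesis, conjugation and transport held 2 calls among 20 genes, both lower (10%, against 1.53% of all genes tested). These were the amido synthetase genes WES1 (GH3.5) and DFL1 (GH3.6), which tie auxin to amino acids, at -0.38 ± 0.06 and -0.39 ± 0.06 (edgeR adjusted p = 0.0028 and 0.00345). DFL1 was at 75.0, 85.7 and 87.3 CPM in AtCXE15-OE, with 66.9, 65.8 and 66.8 CPM in atd14-1 and 103, 108 and 114 CPM in Col-0. In the auxin-responsive families, 2 of 67 SAUR genes fell (2.99%, against 1.53% of all genes tested), and 1 without any 1 library. Of 31 Aux/IAA genes 1 fell (3.23%), IAA2 (-0.33 ± 0.06), and in neither family did a gene rise. No Aux/IAA gene was called without Col-0 replicate 3, and 2 fell without AtCXE15-OE replicate 1 or 3. In the cytokinin (22 tested), gibberellin (20) and brassinosteroid (13) lists edgeR called no gene, nor did DESeq2 or limma-voom, and 5, 4 and 0 genes had an unadjusted p under 0.05. The member with the smallest p in each was CKX1 (-0.54), GASA4 (0.18) and BES1 (0.09). Outside the gibberellin list, GASA1 and GASA5 were called lower (-0.76 ± 0.10 and -1.07 ± 0.15, edgeR adjusted p = 0.00332 and 0.00127). The GASA family was not counted as a whole.

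**Figure D3:**
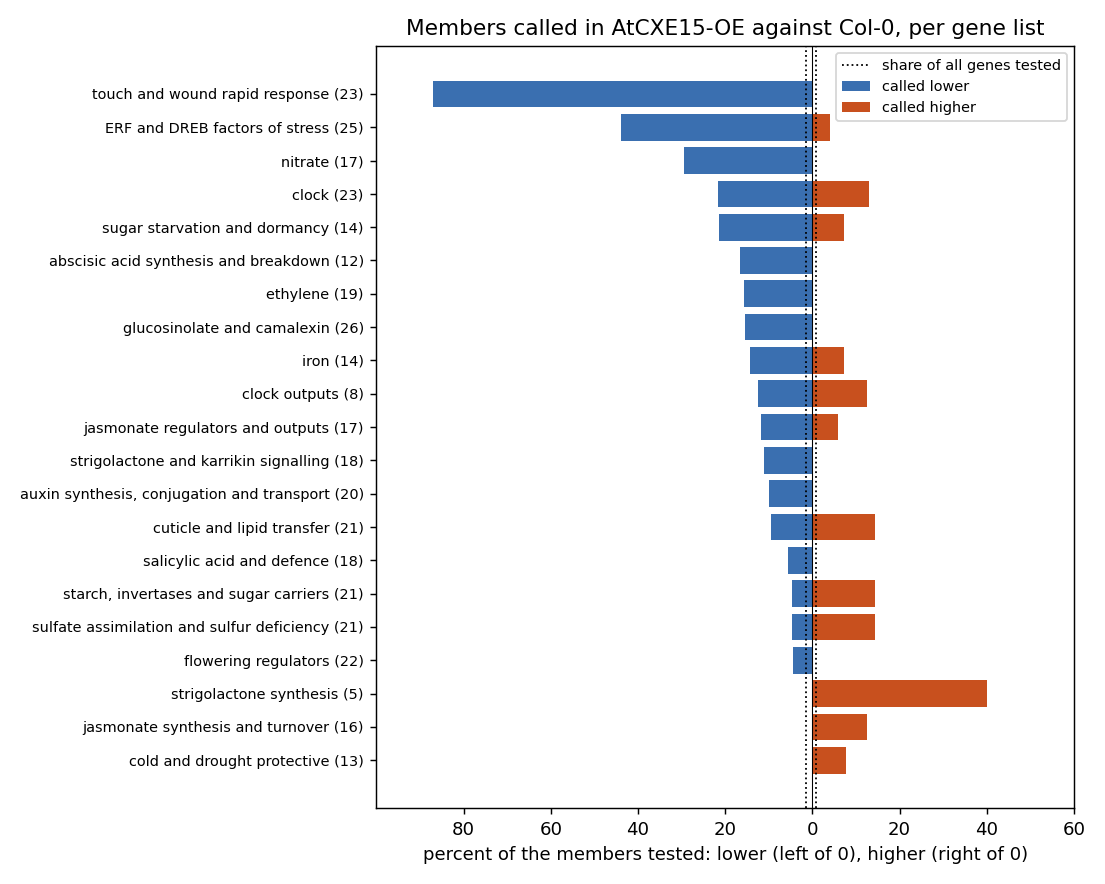
Percent of the tested members of each gene list called lower (blue, left of 0) or higher (orange, right of 0) in AtCXE15-OE against Col-0, for the 21 lists with any call and with the number tested in brackets. Dotted lines mark the shares over all genes tested, 1.53% lower and 0.743% higher, and the touch and wound list stands at 87.0% lower. The lists were chosen with earlier results of these data known.

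Clock genes are described by the time of day at which they are usually expressed, a grouping made after their values were seen. Of 11 genes of dawn and morning 5 fell and none rose. CCA1, a MYB-like repressor at the core of the clock, was at 68.9, 82.0 and 76.7 CPM in AtCXE15-OE, with 58.1, 57.3 and 58.5 CPM in atd14-1 and 101, 95.1 and 95.5 CPM in Col-0 (log2 fold change -0.36 ± 0.06 against Col-0, edgeR adjusted p = 0.00559). It was lowest in the receptor mutant and intermediate in AtCXE15-OE, and AtCXE15-OE differed from atd14-1 too (0.39 ± 0.06, edgeR adjusted p = 0.00175). Its partner LHY was at 72.8, 77.0 and 69.3 CPM in AtCXE15-OE and 121, 101 and 98.0 CPM in Col-0 (-0.54 ± 0.09, edgeR adjusted p = 0.00873), which did not pass without AtCXE15-OE replicate 1. LCL1 (RVE4), a related activator, fell by 0.31 ± 0.05 on the log2 scale, and the night-light-inducible genes LNK3 and LNK4 fell by 0.37 ± 0.07 and 0.49 ± 0.09. With overlapping loci summed, LHY was at -0.17 and LCL1 at -0.16, and neither was called (edgeR adjusted p = 0.0564 and 0.069).

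Of 7 evening genes PRR3, TOC1 and GI rose and none fell. All 7 had a log2 fold change above 0, from 0.23 to 0.48, and the 4 that did not pass the test were FKF1, PCL1, ELF4 and ELF3 (edgeR adjusted p = 0.0504 to 0.187). PRR3, a pseudo-response regulator of dusk, was at 35.7, 35.1 and 36.6 CPM in AtCXE15-OE, with 37.5, 38.1 and 33.3 CPM in atd14-1 and 24.7, 27.9 and 24.6 CPM in Col-0 (0.48 ± 0.07 against Col-0, edgeR adjusted p = 0.00307). TOC1, which represses CCA1, was at 138 ± 2.71 CPM in AtCXE15-OE and 113 ± 5.98 CPM in Col-0 (0.29 ± 0.05, edgeR adjusted p = 0.00909), and GI, which links the clock to flowering, was at 105 ± 0.979 CPM in AtCXE15-OE and 88.8 ± 5.47 CPM in Col-0 (SD, n = 3; 0.25 ± 0.05, edgeR adjusted p = 0.0201). The 3 day genes PRR9, PRR7 and PRR5 were not called, with log2 fold changes of -0.0024, 0.14 and 0.18. Over all 23 clock genes 3 rose (13.0%, against 0.743% of all genes tested) and 5 fell (21.7%, against 1.53%). The number that rose was 5 without AtCXE15-OE replicate 1, but 2 without AtCXE15-OE replicate 2 or 3 or Col-0 replicate 1 or 2. The number that fell was 3 without AtCXE15-OE replicate 3. The clock-controlled RNA-binding protein gene GRP7 was at 918, 862 and 858 CPM in AtCXE15-OE, with 1126, 985 and 1169 CPM in atd14-1 and 657, 625 and 726 CPM in Col-0 (0.39 ± 0.07 against Col-0, edgeR adjusted p = 0.00891), though not past the threshold without Col-0 replicate 1 or 2. The sources used here do not state the hour at which each group was harvested, so that hour and genotype cannot be told apart.

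**Figure D4:**
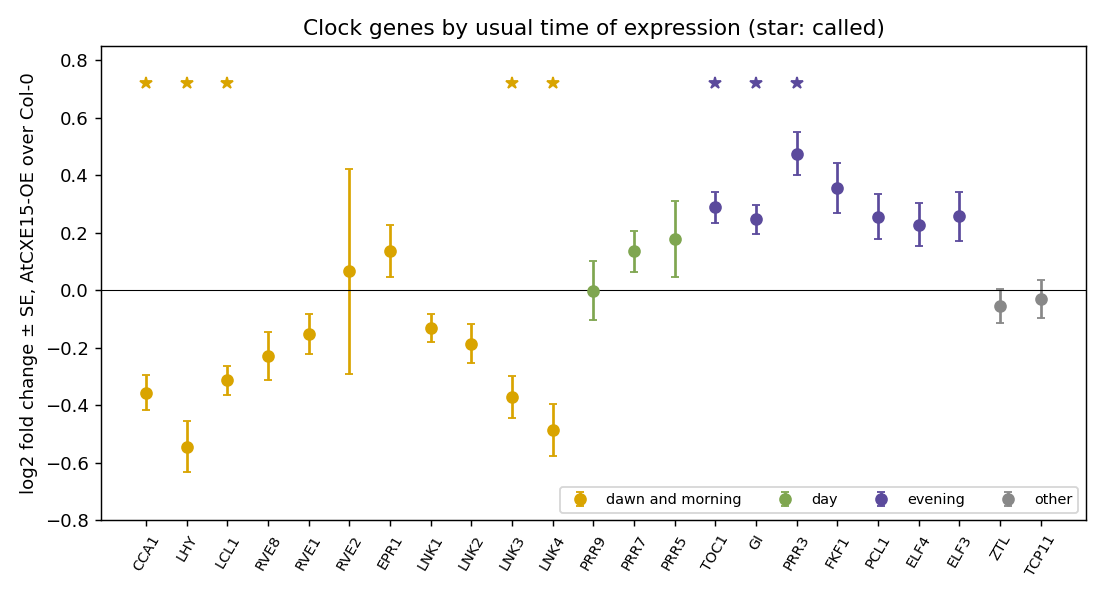
Log2 fold change in AtCXE15-OE over Col-0 of 23 clock genes, grouped by the usual time of their expression, with bars for the SE and stars above the genes called by edgeR. The called dawn and morning genes lie between -0.54 and -0.31 and the called evening genes between 0.25 and 0.48.

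Genes for consecutive steps of nitrate assimilation were lower. NIA1 and NIA2 encode nitrate reductase, which makes nitrite. NIA1 was at 332, 321 and 324 CPM in AtCXE15-OE, with 228, 212 and 226 CPM in atd14-1 and 421, 442 and 429 CPM in Col-0 (log2 fold change -0.40 ± 0.05 against Col-0, edgeR adjusted p = 0.00053). NIA2 was at 1259, 1406 and 1377 CPM in AtCXE15-OE, with 1038, 1007 and 1096 CPM in atd14-1 and 1720.1, 1847 and 1841 CPM in Col-0 (-0.42 ± 0.06, edgeR adjusted p = 0.00127). Both genes were lowest in the receptor mutant and intermediate in AtCXE15-OE, which differed from atd14-1 by 0.55 ± 0.05 for NIA1 and 0.36 ± 0.06 for NIA2 (edgeR adjusted p = 2.43e-05 and 0.00201). The nitrite reductase gene NIR1 (-0.23 ± 0.05), the gene UPM1 for a step in the synthesis of its sirohaem cofactor (-0.22 ± 0.04) and LBD39, a nitrate-induced repressor (-0.36 ± 0.06), were lower as well. Of 17 nitrate genes tested (18 listed) 5 thus fell (29.4%, against 1.53% of all genes tested) and none rose. Without AtCXE15-OE replicate 3, Col-0 replicate 2 or Col-0 replicate 3, the number that fell was 3. The summed level of the list was 6759 to 6786 CPM in AtCXE15-OE, with 5649.7 to 6159.9 CPM in atd14-1 and 7235 to 7753 CPM in Col-0.

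Some sugar-regulated genes also stood between the 2 other groups. DIN10, a dark-inducible gene of the raffinose synthase family, was at 187, 196 and 196 CPM in AtCXE15-OE, with 98.8, 100.3 and 104 CPM in atd14-1 and 237, 251 and 248 CPM in Col-0. It was lower than in Col-0 (log2 fold change -0.34 ± 0.05, edgeR adjusted p = 0.00127) and higher than in atd14-1 (0.94 ± 0.05, edgeR adjusted p = 8.23e-08). BXL1, a beta-xylosidase gene, showed the same order (-0.42 ± 0.06 against Col-0, edgeR adjusted p = 0.00133, and 0.76 ± 0.06 against atd14-1, edgeR adjusted p = 7.9e-06), as did ASN1, the dark-inducible asparagine synthetase gene (-0.39 ± 0.08 and 0.85 ± 0.08, edgeR adjusted p = 0.0275 and 0.000121). The ASN1 call against Col-0 was lost without AtCXE15-OE replicate 2 or 3 or any 1 Col-0 library. Of 14 sugar starvation and dormancy genes these 3 fell (21.4%, against 1.53% of all genes tested). DYL1, a dormancy-associated gene, rose (0.23 ± 0.05, edgeR adjusted p = 0.0292), which is 7.14% of the list against 0.743%. DYL1 did not pass in these 5 cases either.

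In the list of starch, invertases and sugar carriers 3 of 21 tested genes rose (14.3%, against 0.743% of all genes tested). There 1 gene fell (4.76%, against 1.53%), and the median log2 fold change was -0.064. DPE1, the chloroplast disproportionating enzyme, was at 63.0, 63.4 and 63.5 CPM in AtCXE15-OE and 51.2, 54.6 and 50.3 CPM in Col-0 (log2 fold change 0.28 ± 0.05, edgeR adjusted p = 0.0106). The glucan phosphatase gene SEX4 (0.28 ± 0.05, edgeR adjusted p = 0.0107) and the amylase gene AMY3 (0.24 ± 0.05, edgeR adjusted p = 0.0166) were the others that rose. None of the 3 was called without Col-0 replicate 1, 1 was called without AtCXE15-OE replicate 3, and 5 genes of the list were called higher without AtCXE15-OE replicate 1. The gene that fell was the cell wall invertase gene CWINV5, which was at 0.216 ± 0.0503 CPM in AtCXE15-OE, with 0.358 ± 0.186 CPM in atd14-1 and 2.54 ± 0.535 CPM in Col-0 (SD, n = 3; -3.56 ± 0.42 against Col-0, edgeR adjusted p = 0.000351). Its values in both lines are close to the floor of 3 counts, so that the size of that fold change is uncertain, and without AtCXE15-OE replicate 1 the number of genes that fell was 3.

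Sulfur and iron genes changed in both directions. APR1, the reductase that commits sulfate to assimilation, was at 197, 201 and 200.1 CPM in AtCXE15-OE, with 245, 232 and 248 CPM in atd14-1 and 149, 161 and 156 CPM in Col-0 (log2 fold change 0.36 ± 0.05 against Col-0, edgeR adjusted p = 0.00121). GGCT2;1, which degrades glutathione and is induced by low sulfur, was at 9.40, 11.6 and 9.76 CPM in AtCXE15-OE and 4.84, 6.05 and 6.16 CPM in Col-0 (0.85 ± 0.13, edgeR adjusted p = 0.00302). Each of these separated the groups without overlap, as all 480 called genes did. Of 21 sulfate and sulfur deficiency genes, LSU2 rose too (0.34 ± 0.08, edgeR adjusted p = 0.0424) and the transporter gene SULTR2;1 fell (-0.20 ± 0.05, edgeR adjusted p = 0.0448). In all, 3 rose (14.3%, against 0.743% of all genes tested) and 1 fell (4.76%, against 1.53%). The LSU2 call was lost without AtCXE15-OE replicate 2 or 3 or Col-0 replicate 2 or 3, and the SULTR2;1 call also without Col-0 replicate 1. Of 14 iron genes, NAS4, which makes the metal chelator nicotianamine, fell (-0.58 ± 0.10, edgeR adjusted p = 0.0074), as did the transporter gene OPT3 (-0.27 ± 0.05, edgeR adjusted p = 0.0153), lost without AtCXE15-OE replicate 2 or 3 or Col-0 replicate 2 or 3. The ferritin gene FER1 rose (0.29 ± 0.05, edgeR adjusted p = 0.00351), but stood at -0.056 once summed with the 13 loci that overlap it in the table. Of the iron genes 14.3% were thus called lower and 7.14% higher. In the phosphate starvation list of 21 genes none was called by edgeR or limma-voom, 1 was by DESeq2 and 1 had an unadjusted p under 0.05, with log2 fold changes from -0.17 to 0.17.

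Of 26 genes of glucosinolate and camalexin metabolism 4 fell (15.4%, against 1.53% of all genes tested) and none rose. The median log2 fold change was -0.040. The myrosinase genes TGG1 and TGG2, which release mustard oils and lie close together on chromosome 5, had 3152, 2821 and 2881 CPM (TGG1) and 1262, 882 and 849 CPM (TGG2) in AtCXE15-OE. In Col-0 they had 3619, 4073 and 3526 CPM (TGG1) and 1701, 1734 and 1574 CPM (TGG2). The differences were -0.34 ± 0.06 for TGG1 and -0.74 ± 0.14 for TGG2 (edgeR adjusted p = 0.00873 and 0.047), and reads shared by these paralogs may have been split between them. The indole glucosinolate genes CYP79B3 (-0.30 ± 0.06) and MYB51 (-0.41 ± 0.09) were the others that fell. The 4 calls became 2 without AtCXE15-OE replicate 2 or Col-0 replicate 1, 1 without AtCXE15-OE replicate 3 and 0 without Col-0 replicate 2, and 2 other genes were called higher without AtCXE15-OE replicate 1.

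**Figure D5:**
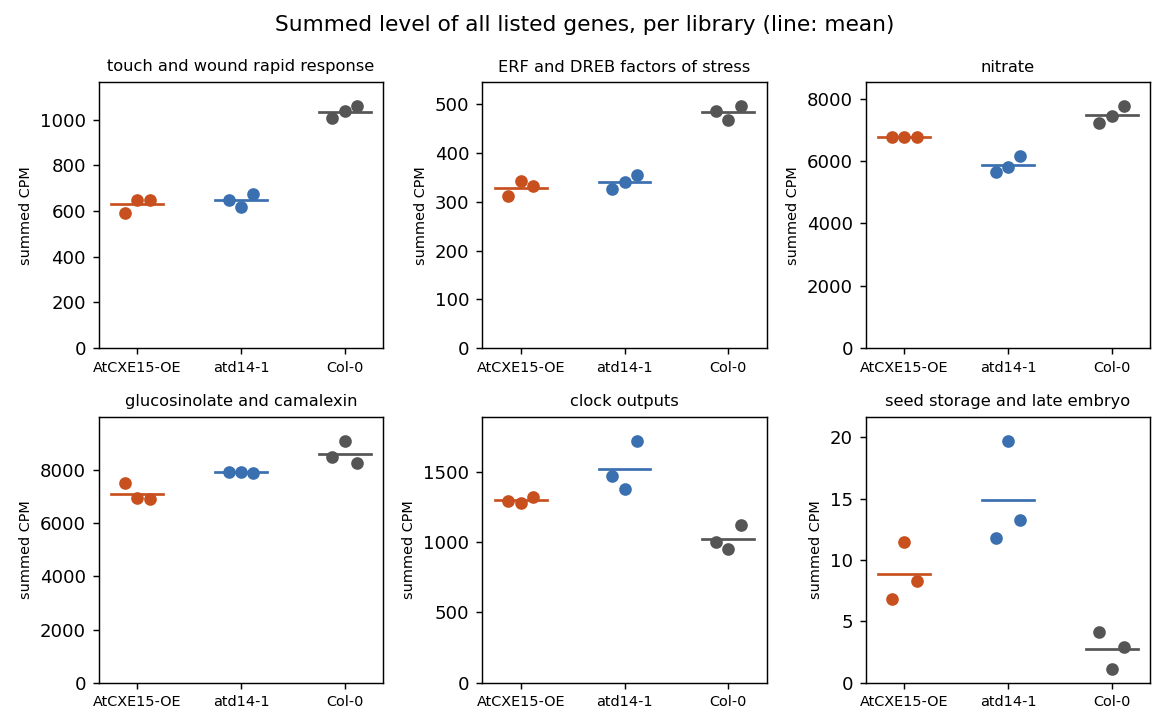
Summed level per library (TMM-scaled CPM, axes from 0) of all listed genes of 6 lists in AtCXE15-OE, atd14-1 and Col-0, with 3 points per group and a line at the mean. AtCXE15-OE lies with atd14-1 and below Col-0 in the touch and wound list (593 to 648, 619 to 675 and 1008 to 1057 CPM), and between them in the nitrate list.

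Of 21 cuticle and lipid transfer genes 3 rose (14.3%, against 0.743% of all genes tested) and 2 fell (9.52%, against 1.53%). Those that rose were the lipid transfer protein genes LTP2, LTP3 and LTP4. LTP3 was at 12.5, 15.8 and 13.5 CPM in AtCXE15-OE, with 17.7, 15.4 and 20.8 CPM in atd14-1 and 8.60, 7.75 and 10.1 CPM in Col-0 (log2 fold change 0.66 ± 0.14 against Col-0, edgeR adjusted p = 0.0195). Its neighbour LTP4 was at 1.67, 3.06 and 2.97 CPM in AtCXE15-OE, with 9.61, 8.65 and 11.7 CPM in atd14-1 and 1.16, 1.34 and 1.24 CPM in Col-0, which puts AtCXE15-OE far nearer the wild type (1.05 ± 0.22 against Col-0, edgeR adjusted p = 0.0232, and -1.95 ± 0.21 against atd14-1, edgeR adjusted p = 0.000125). LTP2 rose by 0.31 ± 0.07 and was higher than in atd14-1 as well (0.33 ± 0.07). KCS1, an enzyme that elongates fatty acids for wax, was lower (-0.26 ± 0.06, edgeR adjusted p = 0.0493), close to the threshold. The regulator gene MYB30 was lower (-0.42 ± 0.10, edgeR adjusted p = 0.044). No gene of this list was called higher without AtCXE15-OE replicate 2 or 3 or Col-0 replicate 1 or 2, 1 was without Col-0 replicate 3, and the number lower was 0 without AtCXE15-OE replicate 1 or 3 or any 1 Col-0 library.

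Several groups showed little. In the lists for light harvesting and carbon fixation, light and shade factors, flavonoids, stomatal lineage, heat shock, meristems and roots edgeR called no gene among 11 to 23 tested in each. The numbers with an unadjusted p under 0.05 were 5, 4, 1, 1, 2, 1 and 2 in that order. DESeq2 called 2 light-harvesting and carbon fixation genes, 2 light and shade genes and 1 stomatal gene lower, limma-voom called none in these lists, and edgeR called 2 light-harvesting and carbon fixation genes lower without AtCXE15-OE replicate 1. The light-harvesting list still had 20 of 21 members below 0, with a median log2 fold change of -0.12. LHCB2.3, a light-harvesting gene outside that list, was called lower (-0.25 ± 0.06, edgeR adjusted p = 0.0328). Of 22 flowering regulators 1 fell (4.55%, against 1.53% of all genes tested), RAV2 (TEM2), a repressor of flowering (-0.36 ± 0.06, edgeR adjusted p = 0.00299). Seed storage and late embryo transcripts were rare but set the groups apart, with summed levels of 6.83, 11.5 and 8.26 CPM in AtCXE15-OE, with 11.8, 19.7 and 13.3 CPM in atd14-1 and 4.16, 1.13 and 2.90 CPM in Col-0. None of the 6 tested was called by edgeR or limma-voom, 1 was by DESeq2 and 1 by edgeR without Col-0 replicate 2, and 2 had an unadjusted p under 0.05. The one with the smallest p, the cruciferin gene CRA1, was at 6.11 ± 1.41 CPM in AtCXE15-OE and 1.64 ± 0.863 CPM in Col-0 (SD, n = 3; 1.89 ± 0.46, edgeR adjusted p = 0.113). Their part in the changes described above was not tested.

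By the size of the rise in CPM, which favours abundant and long transcripts, GRP7 led, followed by GER3, a germin-like protein gene at 757, 658 and 658 CPM in AtCXE15-OE and 504, 498 and 455 CPM in Col-0 (log2 fold change 0.51 ± 0.07, edgeR adjusted p = 0.000958). The circadian transcript CCL (0.27 ± 0.05), LOX2, the beta-glucosidase gene BGLU44 (0.29 ± 0.05) and FER1 came next. Among the largest falls in CPM, beside TGG1, TGG2 and NIA2, were DR4, a drought-repressed gene, and CRD1, a gene of chlorophyll synthesis. DR4 was at 667, 762 and 730.4 CPM in AtCXE15-OE, with 902, 824 and 934 CPM in atd14-1 and 1094, 1011 and 1075 CPM in Col-0, and was lower than in either other group (-0.56 ± 0.06 against Col-0, edgeR adjusted p = 0.000328, and -0.30 ± 0.06 against atd14-1, edgeR adjusted p = 0.0123). CRD1 fell by 0.25 ± 0.05 (edgeR adjusted p = 0.0226), though not past the threshold without AtCXE15-OE replicate 2 or 3 or any 1 Col-0 library.

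After RAP2.1 and CCD8, the steepest rises among genes with a mean of at least 1 CPM were those of the carboxypeptidase-like gene scpl30 (log2 fold change 1.60 ± 0.29), the cellulase gene CEL3 (1.14 ± 0.17), the spindle pole component gene AT1G20570 (1.06 ± 0.21) and LTP4. CEL3 was at 6.88, 5.26 and 4.49 CPM in AtCXE15-OE, with 13.4, 11.7 and 13.4 CPM in atd14-1 and 2.81, 2.55 and 2.19 CPM in Col-0. The copper amine oxidase gene AT1G31690 was at 30.4 ± 1.01 CPM in AtCXE15-OE, with 44.9 ± 1.37 CPM in atd14-1 and 16.0 ± 1.74 CPM in Col-0 (SD, n = 3; 0.92 ± 0.08 against Col-0, edgeR adjusted p = 1.86e-05). In both genes AtCXE15-OE lay between the wild type and the receptor mutant, and the difference from atd14-1 was called (-1.21 ± 0.16 and -0.57 ± 0.08, edgeR adjusted p = 0.000529 and 0.000747). SK42, a shaggy-like kinase gene, was at 81.0, 96.6 and 91.4 CPM in AtCXE15-OE and 48.4, 42.1 and 45.9 CPM in Col-0, but summed with 21 loci that overlap it in the table its log2 fold change was 0.028 (edgeR adjusted p = 0.885).

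At the low end, 4 of the 10 lowest log2 fold changes moved toward or past 0 once overlapping loci were summed. Such a sum adds the counts of other loci and so also dilutes a fall in a gene with few counts. Whether counts were divided wrongly between these loci was not tested. FAS4, annotated as an RNA helicase, had 0.172 ± 0.0618 CPM in AtCXE15-OE, with 13.9 ± 7.35 CPM in atd14-1 and 15.2 ± 2.32 CPM in Col-0 (SD, n = 3). Its log2 fold change was -6.45 ± 0.66 alone and 0.058 once summed with the loci that overlap it. Likewise AT4G19060 was at -4.53 ± 0.49 alone and 0.081 summed, BGLU47 at -2.26 ± 0.22 and -0.21, and the redox-responsive factor RRTF1 at -1.72 ± 0.25 and -0.46. Of these 4 sums, that of RRTF1 was called (edgeR adjusted p = 0.0233). The other 6 genes overlap no other locus that spans at most 100 kb. AT1G23720, an extensin-like gene with a repetitive sequence, was at 24.2, 17.9 and 11.2 CPM in AtCXE15-OE, with 154, 108 and 72.8 CPM in atd14-1 and 104, 99.5 and 128 CPM in Col-0 (-2.64 ± 0.39 against Col-0, edgeR adjusted p = 0.0267), though not past the threshold without AtCXE15-OE replicate 2 or 3 or any 1 Col-0 library. The aspartyl protease gene AT5G48430 (-1.82 ± 0.29) and the phloem protein gene PP2-A5 (-1.64 ± 0.30) were low throughout, at 0.646 to 0.937 and 0.533 to 1.01 CPM in AtCXE15-OE against 2.48 to 3.55 and 2.13 to 2.88 CPM in Col-0.

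Over all genes tested, 1474 (6.98%) differed between AtCXE15-OE and atd14-1. That count was 827 and 769 without AtCXE15-OE replicate 2 or 3, and 811, 760 and 906 without atd14-1 replicate 1, 2 or 3. Of the 323 genes lower than in Col-0, 34 were also lower than in atd14-1 and 53 were higher than in it. Of the 157 genes higher than in Col-0, 32 were also higher than in atd14-1 and 35 were lower. SAMBA, a regulator of the anaphase-promoting complex, was at 1.53, 1.07 and 1.09 CPM in AtCXE15-OE, with 2.48, 2.71 and 3.90 CPM in atd14-1 and 3.02, 2.68 and 4.21 CPM in Col-0. It was lower than in both (log2 fold change -1.43 ± 0.25 against Col-0, edgeR adjusted p = 0.0075, and -1.31 ± 0.25 against atd14-1, edgeR adjusted p = 0.0071). Other genes named here that were lower than in both were AT1G23720, DR4, STZ, ACS6, AT4G29780, AT3G56880, FAS4, SULTR2;1, XTH19 and AT3G49960. For STZ the margin was small (-0.28 ± 0.06 against atd14-1, edgeR adjusted p = 0.013). The difference from atd14-1 did not pass without AtCXE15-OE replicate 2 for AT1G23720, without atd14-1 replicate 1 or 3 for DR4, and without atd14-1 replicate 2 or 3 for STZ. It did not pass for AT4G29780 without AtCXE15-OE replicate 3 or any 1 atd14-1 library, or with limma-voom. For AT3G56880 it did not pass without AtCXE15-OE replicate 2 or 3 or atd14-1 replicate 1 or 2. For FAS4 it was lost with limma-voom and with overlapping loci summed. In most of the touch and wound genes named here the 2 lines did not differ by the test, as for SZF1 (-0.10 ± 0.06, edgeR adjusted p = 0.374), WRKY40 (-0.12 ± 0.10, 0.574) and TCH4 (-0.04 ± 0.06, 0.746), which does not show that they are equal.

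Among the 191 tested members of the alpha/beta hydrolase superfamily, to which CXE15 belongs, 3 others rose and 3 fell (1.57% each, against 0.743% and 1.53% of all genes tested). The methylesterase gene MES10 was at 35.9, 49.1 and 44.0 CPM in AtCXE15-OE, with 45.8, 44.6 and 41.4 CPM in atd14-1 and 30.5, 27.5 and 29.5 CPM in Col-0 (log2 fold change 0.56 ± 0.10 against Col-0, edgeR adjusted p = 0.00741). AT4G17470 also rose (0.64 ± 0.12) and the lipase gene DLAH (-0.77 ± 0.17) and AT5G24200 (-1.11 ± 0.24) fell. The 3 that fell became 0 without AtCXE15-OE replicate 3 and 1 without AtCXE15-OE replicate 1 or 2 or Col-0 replicate 1 or 2.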

How the data were processed

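Polyadenylated RNA from whole seedlings was sequenced in 9 libraries. The authors deposited 1 table of raw counts per gene, not normalized, with 1 column per library. Per the submitters' processing notes, the build was TAIR10, and the tools named are SAMtools 0.1.18, DESeq 1.39.0, HISAT2 and Picard. How reads were counted, with which tool, strand setting and rule for several matches, was not given in the sources used here, and the library protocol does not mark strand. Reads of overlapping genes, of antisense pairs and of near-identical paralogs may therefore be assigned to either.

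Of 27814 rows, 27366 carry a locus ID. The RefSeq annotation of TAIR10.1 held 26694 of them and gave a symbol for 10367. Gene coordinates are that annotation's, 1-based, and all 26682 nuclear rows matched overlap their annotated gene on its strand.

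All 9 libraries entered 1 edgeR 4.0.16 fit (R 4.3.3, quasi-likelihood, robust, TMM, filterByExpr by group, 21425 rows tested), as group means. AtCXE15-OE minus Col-0 and AtCXE15-OE minus atd14-1 were taken from it, with Benjamini-Hochberg adjustment over all rows and 0.05 as the threshold. All levels are in TMM-scaled CPM, and the SE is the absolute log2 fold change divided by the square root of F. Depth limits the precision: 3 counts, the floor used, were 0.0542 to 0.0775 CPM, for counting error only. Alternatives were DESeq2 1.42.0, limma-voom (limma 3.58.1), 2 other scalings, 2 other filters, only the 6 libraries, each library left out, the replicate number as a block, overlapping loci summed, and CXE15 removed before scaling. The same alternatives for AtCXE15-OE against atd14-1 were chosen after seeing the data.

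The 34 gene lists (586 genes, matched by symbol, 7 entries left out) and 21 families (by annotated name) were chosen with earlier results of these data known, and are described without a set test. Named genes were, among called genes whose libraries do not overlap and whose mean is at least 1 CPM, the 10 highest and 10 lowest by log2 fold change, the 10 smallest adjusted p, the 6 largest rises and 6 largest falls in CPM, up to 4 called per list or family or else the smallest p, and the 5 highest and 5 lowest against atd14-1 among genes called in both comparisons. CBF2, LNK3, LNK4, TOC1, GI, NIR1, MPK3, ZAT11, CML39, PRR9, PRR7, PRR5, GASA1, GASA5 and LHCB2.3 were added after their values were seen. A gene that the rule names is not reported here.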

Additional observations from a re-analysis of the deposited data

Results flagged for a closer look

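Loci that the table lists without a locus ID entered the fit but none of the comparisons above. Of 294 tested, 5 were called higher and 1 lower in AtCXE15-OE, and the 5 were flagged as a signal outside the main measurement that lay above the level in Col-0. On chromosome 4 (5075032 to 5086816 in the deposited table, here and below) the mean level was 44.1 ± 5.66 CPM in AtCXE15-OE and 28.3 ± 4.53 CPM in Col-0 (SD, n = 3; log2 fold change 0.64 ± 0.12 SE, edgeR adjusted p = 0.0178). On chromosome 3 (11758483 to 11761120) it was 5.98 ± 0.500 CPM in AtCXE15-OE and 3.79 ± 0.526 CPM in Col-0, and on chromosome 2 (7598339 to 7602966) 3.00 ± 0.765 CPM in AtCXE15-OE and 1.36 ± 0.297 CPM in Col-0. On chromosome 1 (13477657 to 13480828) it was 1.42 ± 0.212 CPM in AtCXE15-OE, 0 in all 3 atd14-1 libraries and 0.284 ± 0.0248 CPM in Col-0. Another locus on chromosome 1 (641389 to 642394) was at 0.364, 1.14 and 0.703 CPM in AtCXE15-OE, a mean of 0.737 CPM, and at 0 in all 3 Col-0 libraries, which is at least 10.1-fold higher against a floor of 3 counts per library, and it overlaps AT1G02860 and AT1G02870 in the table.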

How the results depend on the processing

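None of the 480 called genes changed sign under the alternatives that kept loci separate, and all 480 were called again when CXE15 was removed before scaling. The number called was 825 with DESeq2 (309 higher and 516 lower) and 284 to 578 with 1 library left out (77 to 235 higher and 206 to 343 lower), and 97 genes were called higher in a fit of only the 6 libraries. At least 2-fold changes were called by DESeq2 for 60 genes that fell and 27 that rose. The number that differed from atd14-1 was 760 to 2201 with 1 library left out. Of 2272 values of the 142 named genes under alternatives, 1983 kept their direction and side of the threshold, 270 lost the call, 15 gained one and 4 reversed, all with overlapping loci summed: FAS4 (0.058), AT4G19060 (0.081), FER1 (-0.056) and MBF1C (-0.014). For these sums the cause is in their construction, since they add the counts of other loci. Elsewhere the cause was not tested. Same-numbered libraries of AtCXE15-OE and Col-0 did not deviate together over all genes (correlations of -0.017, 0.022 and 0.030). Such a value cannot show whether the numbers mark a batch that moves only some genes. With the replicate number as a block 454 genes were called, 146 higher and 308 lower, of which 414 were among the 480. Genes near the floor, such as CCD7, CWINV5 and FAS4, have uncertain fold changes, and 1.5-fold changes of low genes may be missed at this depth.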

Other observations

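Families outside the groups above held few calls. Of 64 class III peroxidase genes, which cross-link or loosen cell walls, 2 fell (3.1%, against 1.53% of all genes tested) and 1 rose (1.56%, against 0.743%). The gene that rose was not called without AtCXE15-OE replicate 2 or 3 or any 1 Col-0 library, nor with limma-voom. AT3G49960 was at 21.3, 19.8 and 23.2 CPM in AtCXE15-OE, with 30.3, 28.1 and 28.4 CPM in atd14-1 and 30.5, 29.7 and 28.5 CPM in Col-0, and was lower than in either other group (log2 fold change -0.47 ± 0.07 against Col-0, edgeR adjusted p = 0.0037, and -0.43 ± 0.07 against atd14-1, edgeR adjusted p = 0.00329). Of 172 lectin and leucine-rich repeat receptor kinase genes 2 fell (1.16%) and 1 rose (0.581%), both below the shares of all genes tested. The lectin kinase gene AT4G02410 fell beside SOBIR1, at 27.9 ± 0.620 CPM in AtCXE15-OE and 37.4 ± 0.612 CPM in Col-0 (SD, n = 3; -0.42 ± 0.06, edgeR adjusted p = 0.00142). Of 83 NAC genes 2 fell (2.41%), NAC062, a membrane-bound factor of cold and defence (-0.45 ± 0.08), and TIP (-0.34 ± 0.07), and neither was called without AtCXE15-OE replicate 3 or Col-0 replicate 1. GSTU20 was the 1 glutathione transferase gene of 54 that rose (1.85% of them), at 0.31 ± 0.06 (edgeR adjusted p = 0.00994), though not past the threshold without Col-0 replicate 1 or 2. No gene for a cytosolic ribosomal protein was called by edgeR or limma-voom among 277 tested, where DESeq2 called 3 higher and 21 had an unadjusted p under 0.05.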
